A study of Mus musculus with 6 samples.

Results

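The SLC15 peptide and histidine transporters measured here were the 3 genes *Slc15a2*, *Slc15a3* and *Slc15a4*, found by symbol among the 32285 genes counted in each of 6 single-cell libraries of sorted mouse brain myeloid cells. They were chosen because *Slc15a2* stood about 4 times higher in the libraries prepared with inhibitors with both capture kits, so every value that sets the inhibitor libraries against the others is given for these genes as a description, with no test. Over all 29412 deposited barcodes, *Slc15a2* had 1158 UMIs (unique molecular identifiers, each standing for 1 captured transcript), *Slc15a3* 7773 and *Slc15a4* 8755. The family's other members were nearly unseen, with 4 UMIs of *Slc15a1*, the peptide carrier of the gut, and 0 of *Slc15a5*, which allows up to 3 UMIs in all.

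SLC15 proteins carry small peptides across membranes together with protons. *Slc15a2* encodes PEPT2, which takes up dipeptides and tripeptides at the plasma membrane and is known in brain from the choroid plexus and astrocytes. *Slc15a3* and *Slc15a4* encode PHT2 and PHT1, carriers of the endolysosomal membrane that also move free histidine; both have been tied to the sensing of bacterial peptides and nucleic acids, and PHT1 holds the adaptor TASL, through which endosomal Toll-like receptors reach the transcription factor IRF5.

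The cells came from whole brains of 3 male C57BL/6J mice at postnatal day 89. Each brain was broken up by cold Dounce homogenization and its CD45+/CD11b+ cells were sorted. Mouse 2 was prepared with inhibitors (DNC-INHIB: actinomycin D and triptolide against transcription from perfusion on, joined at dissection by anisomycin against translation), and mice 1 and 3 without (DNC-NONE). Cells of each mouse were captured with both the 10X V3.0 and the 10X V3.1 kit, so the inhibitors cannot be told apart from the mouse, and the libraries of a mouse share an animal and a preparation.

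The libraries held between 6275898 and 18872816 UMIs. A barcode counted as a cell when it held between 1000 and 4000 genes, no more than 12000 UMIs and no more than 15% of them mitochondrial, which left 19725 cells; 70.0% to 76.8% of barcodes passed in 5 libraries, but 21.5% in the V3.0 library of mouse 3. Clusters built without the 3 genes gave 18960 microglia, 337 neutrophils, 276 monocytes and 118 border macrophages. Of the sequences of passing barcodes, 38 occurred in more than 1 library. Levels are given as CPM, a gene's UMIs scaled to counts-per-million of the UMIs of the same cells. Summed over 10 microglial marker genes, microglia stood at 25273 to 28119 CPM in each library, neutrophils at 1466 to 5185 and border macrophages at 4458 to 12624, so microglial transcripts were found in the other cell types. Border macrophages, known from the brain's surfaces and vessels, came from a cluster led by the antigen presentation genes *H2-Eb1* and *H2-Aa* and by *Ms4a7* and *Pf4*; cells of this and the monocyte cluster were sorted per cell by whether they held more UMIs of 10 border macrophage or 9 monocyte markers, so the label is partly a range of a score. The 10 markers summed to 2975 to 6386 CPM in border macrophages, 199 to 327 in microglia and 14.1 to 74.2 in neutrophils. Neutrophil transcripts were also widespread, with *S100a8* in 69.4% of microglia.

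*Slc15a2* (ENSMUSG00000022899) lies on the minus strand at chr16:36750177-36784962 of GRCm38, by GENCODE M21. *Slc15a3* (ENSMUSG00000024737) lies on the plus strand at chr19:10839727-10859362 and overlaps *Tmem132a* and *AC132402.1* on the other strand. *Slc15a4* (ENSMUSG00000029416) lies on the minus strand at chr5:127595664-127632897 and overlaps *Glt1d1* on the other strand, which had no microglial UMI in any library. The 250 bases before the RefSeq start are shown for *Slc15a2*, whose level differed most between mice, and for *Slc15a4*, whose level differed least, on GRCm38.p6 and the minus strand, with each CpG in capitals. The first spans chr16:36784963-36785212 and the second chr5:127617393-127617642, which is inside the GENCODE gene because RefSeq starts its transcript further in.
Slc15a2: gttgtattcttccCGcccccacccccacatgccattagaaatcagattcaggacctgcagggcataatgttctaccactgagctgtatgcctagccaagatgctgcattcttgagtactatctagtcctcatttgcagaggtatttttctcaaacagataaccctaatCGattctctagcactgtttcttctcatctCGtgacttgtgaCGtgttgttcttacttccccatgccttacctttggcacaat
Slc15a4: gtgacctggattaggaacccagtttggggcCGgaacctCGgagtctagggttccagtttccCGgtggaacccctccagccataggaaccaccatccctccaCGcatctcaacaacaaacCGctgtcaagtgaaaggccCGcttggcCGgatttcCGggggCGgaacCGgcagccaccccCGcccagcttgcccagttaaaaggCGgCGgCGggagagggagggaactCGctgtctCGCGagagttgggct
The *Slc15a2* window held 4 CpG at 45.2% GC, and the *Slc15a4* window held 17 at 62.8% GC. Of 32851 mouse promoter windows of this length, 37.8% had fewer CpG than the first and 23.5% had as many as the second or more; the median was 6 CpG at 52.4% GC. The letters GAAA, any 2 bases and GAAA (the interferon-stimulated response element, in 2.98% of these windows), CACGTG (an E-box, in 6.02%) and GAGGAAGT (a PU.1 sequence, in 2.44%), searched on both strands, were not in either window.

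In microglia, *Slc15a2* was the member that varied most between mice. It stood at 9.51 CPM with V3.0 and 5.86 with V3.1 in mouse 1, at 33.3 and 20.6 in mouse 2, and at 3.41 and 3.44 in mouse 3. Both libraries prepared with inhibitors were above all 4 without. These levels rest on 122, 56, 473, 251, 11 and 57 UMIs in that order. The 95% exact Poisson intervals of the mouse 2 libraries were 30.4 to 36.4 and 18.1 to 23.3 CPM. All such intervals cover counting error only and not the spread between mice, and this is the difference the genes were chosen for.

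The peptide carrier was seen in few cells of any library. At least 1 UMI of *Slc15a2* was found in 9.95% and 6.51% of the microglia of mouse 2 (V3.0 and V3.1), 3.45% and 1.89% in mouse 1, and 1.21% and 1.18% in mouse 3. After each cell was thinned to 2000 UMIs, which left out 761 microglia with fewer, these shares were 6.18% and 3.87%, 2.00% and 0.950%, and 0.682% and 0.739%. Between 84.7% and 100% of the cells with any UMI of *Slc15a2* held exactly 1, and the most in a cell was 3. For comparison, *Snap25*, a neuronal gene that microglia should lack, had a UMI in 0.200% of microglia, at a median of 3507 UMIs per cell.

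*Slc15a4*, the PHT1 gene, was nearly the same in every library. It stood at 106 and 103 CPM in mouse 1, 109 and 105 in mouse 2, and 102 and 105 in mouse 3 (V3.0 and V3.1), a coefficient of variation of 2.29% over 6 libraries. That of *Slc15a2* was 94.3% and that of *Slc15a3* 21.5%. A UMI of *Slc15a4* was found in 28.9% to 31.7% of microglia per library.

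*Slc15a3*, the PHT2 gene, was higher in mouse 1 than in the other mice. It stood at 101 and 135 CPM in mouse 1, at 81.7 and 85.7 in mouse 2, and at 82.7 and 88.0 in mouse 3, with a UMI in 23.2% to 35.0% of microglia. The libraries with inhibitors overlapped those without.

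**Figure D1:**
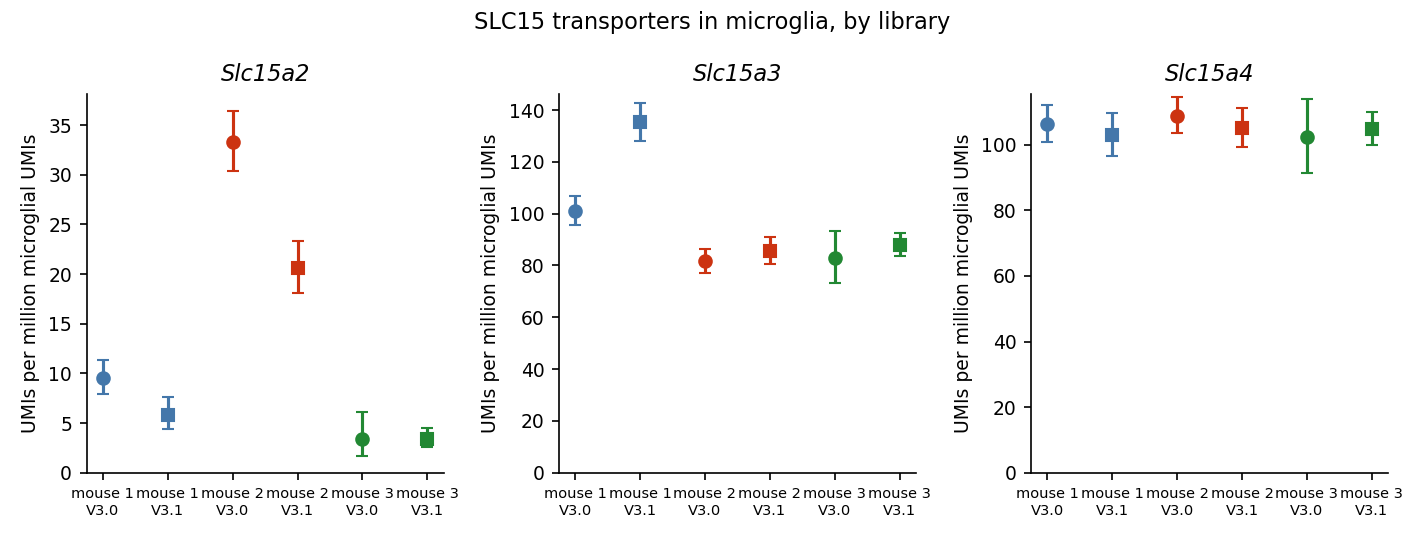
Level of each transporter in microglia (vertical axis, CPM, from 0) in each of the 6 libraries (horizontal axis, mouse and kit); bars are 95% exact Poisson intervals of the counts, circles V3.0 and squares V3.1. *Slc15a2* is highest in both libraries of mouse 2, the one prepared with inhibitors (33.3 and 20.6), *Slc15a3* is highest in mouse 1 (101 and 135), and *Slc15a4* stays between 102 and 109.

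Set against the mean of both libraries without inhibitors of the same kit, the level of *Slc15a2* with inhibitors was 5.15 times as high with V3.0 and 4.43 times as high with V3.1. Ordered by the smaller of these ratios, it was number 10 of 13094 genes; 11 genes, or 0.084%, reached 4 times with each kit, which is the measure the choice of the family used. A mean of at least 5 CPM and a level above 0 with each kit was held by 9707 of the 13094 genes. Of these, 97.9% lay within 1.5 times the level without inhibitors, either way, with each kit. *Slc15a2* was the 1 gene among them to reach 4 times with each kit, which restates its choice on this ratio. Both libraries with inhibitors exceeded all 4 without in 5.94% of the 13094 genes and lay below all 4 in 7.51%, and neither holds for *Slc15a3* or *Slc15a4*. The 2 mice without inhibitors stood apart as well, at 7.96 CPM in mouse 1 (6.83 to 9.21) and 3.44 in mouse 3 (2.67 to 4.36) with both kits summed. Against them, *Slc15a2* in mouse 2 was 3.45 times the level of mouse 1 (95% counting interval 2.92 to 4.09) and 7.98 times that of mouse 3 (6.22 to 10.4). The ratios of *Slc15a3* were 0.889 with V3.0 and 0.768 with V3.1, and those of *Slc15a4* were 1.04 and 1.01.

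**Figure D2:**
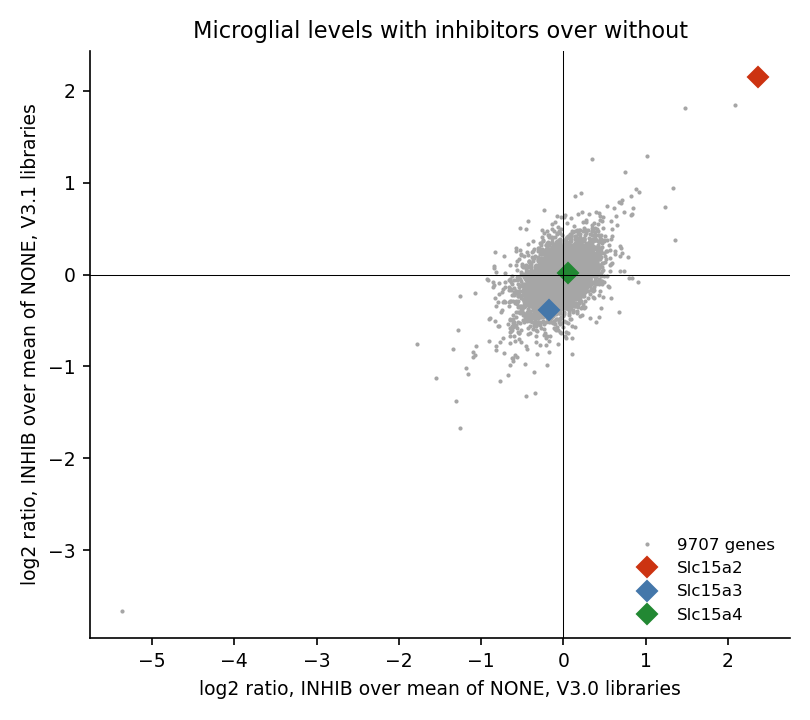
Log2 ratio of the microglial level with inhibitors to the mean without, for V3.0 (horizontal axis) and V3.1 (vertical axis), over 9707 genes with a mean of at least 5 CPM and no level of 0 with a kit. *Slc15a2* (2.37, 2.15) lies at the upper right end, *Slc15a3* (−0.17, −0.38) and *Slc15a4* (0.06, 0.02) within the cloud.

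The same *Slc15a2* UMIs, split by depth and by cluster, describe how the chosen difference was spread over the cells of 1 mouse and are no repeat of it. With the cells of each library split into 3 groups of equal size by UMIs per cell, the level ranged from 18.3 to 39.9 CPM over the groups of mouse 2, from 3.43 to 14.0 in mouse 1 and from 2.65 to 4.95 in mouse 3. Of 13 microglial clusters, 9 held at least 50 cells of each mouse, with *Slc15a2* in them at 24.7 to 48.7 CPM in mouse 2, 5.99 to 10.7 in mouse 1 and 2.06 to 4.30 in mouse 3. Clusters under that limit rest on few UMIs, with mouse 2 the highest in each by wide or narrow margins. The one led by *mt-Nd3* had *Slc15a2* at 9.33 CPM in mouse 1 (2 UMIs) and 26.8 in mouse 2 (17 UMIs). The one led by *Ccl24* had it at 0 and 20.6, from 0 and 1 UMIs. The one led by *mt-Nd6* had it at 30.4 CPM in mouse 1 (6 UMIs) and 32.8 in mouse 2 (9 UMIs). The one led by *Ccl4* had it at 7.03 and 14.4, from 2 and 7 UMIs. Markers of the choroid plexus, known for this carrier, summed to 0.624 to 3.72 CPM in the microglia of the 6 libraries, with 3 to 5 of 6 markers at 0. In mouse 2 they summed to 1.34 and 3.45 CPM. The 6 astrocyte markers summed to 205 to 239 CPM, with 239 and 205 in mouse 2 and with 1 or 2 of them at 0 in each library. Those at 0 were among *Aqp4*, *Gfap* and *Gja1*. In border macrophages of mouse 1 with V3.0 the sum was 113 CPM with only *Slc1a3* above 0, so it need not come from astrocytes. The markers of border macrophages, where *Slc15a2* was also found, summed to 319 and 224 CPM in the microglia of mouse 2. Whether RNA of other cell types bears on the *Slc15a2* level of mouse 2 was not tested.

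*Slc15a3* was highest in mouse 1 in each of the 9 clusters with at least 50 cells of each mouse, except the one led by *A430106G13Rik*. There it stood at 109 CPM in mouse 1 and 112 in mouse 2. For *Slc15a4* no one mouse was highest throughout. Over the 9 clusters, *Slc15a3* ranged from 92.3 to 149 CPM in mouse 1, from 71.4 to 118 in mouse 2 and from 69.7 to 126 in mouse 3, and *Slc15a4* from 91.9 to 125, from 84.1 to 121 and from 88.4 to 140.3. In the cluster led by the interferon-induced genes *Ifit3*, *Ifit2* and *Ifit1*, *Slc15a3* stood at 148, 118 and 111 CPM in mice 1, 2 and 3. The smaller cluster led by the chemokine genes *Ccl4* and *Ccl3* had 72, 108 and 45 cells of these mice and *Slc15a3* at 302, 171 and 151 CPM. These clusters were drawn from the same cells, so the levels are descriptions with no test.

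**Figure D3:**
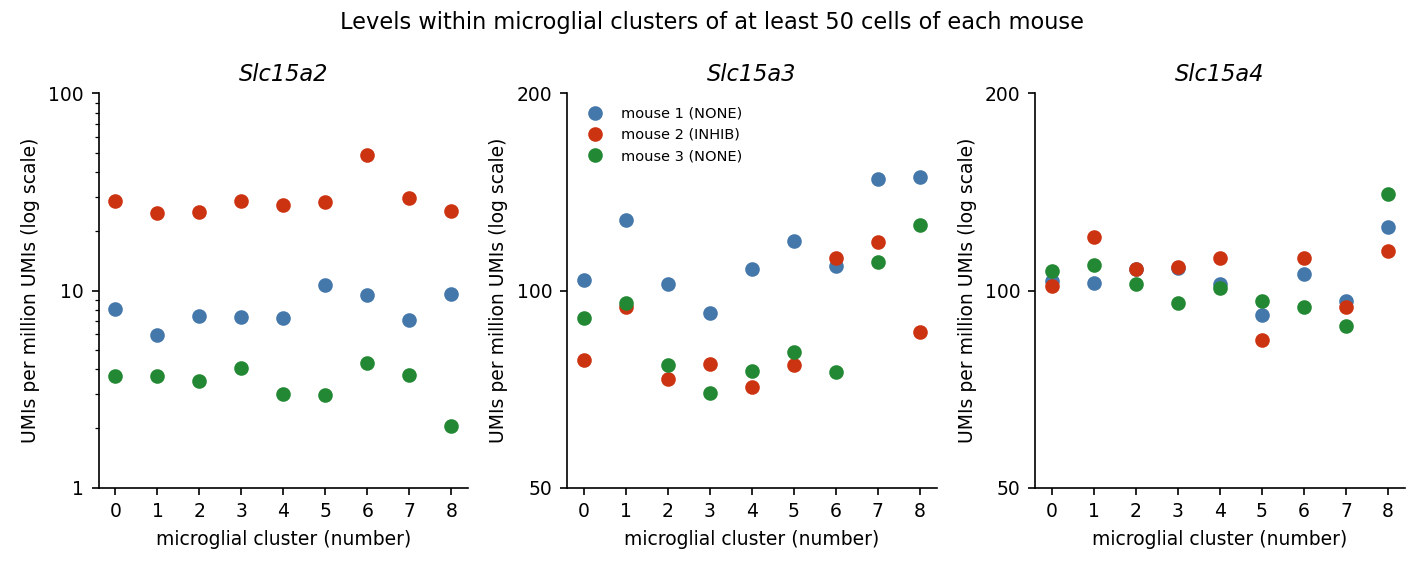
Level of each transporter (vertical axes, CPM, log scale, with a separate range for each gene) in the 9 microglial clusters with at least 50 cells of each mouse (horizontal axis, cluster number); each point is 1 mouse. For *Slc15a2* the points of mouse 2 (24.7 to 48.7) lie above those of mouse 1 (5.99 to 10.7) and mouse 3 (2.06 to 4.30), the difference the genes were chosen for, and for *Slc15a4* the mice are mixed. In a smaller cluster, not shown, *Slc15a2* stood at 30.4 in mouse 1 and 32.8 in mouse 2.

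The comparison of the V3.1 with the V3.0 kit asked whether the capture chemistry moved the levels. Over 12013 genes, 3.06% were called different in microglia (edgeR's quasi-likelihood test, Benjamini-Hochberg adjusted p under 0.05 with a change in either direction of more than 0.58 on the log2 scale; SE is the standard error of a log2 fold change), and none of the 3 transporters was. *Slc15a2* differed by −0.86 on the log2 scale (SE 0.60, adjusted p = 0.37), where the spread includes the difference between mice. With the mouse as a replicate block, it fell by 0.63 with V3.1 (SE 0.12, adjusted p = 0.00043) and was called, while the count of calls over all genes rose from 368 to 595. Its V3.1 level was 0.616 times the V3.0 level in mouse 1 (95% counting interval 0.441 to 0.852), 0.619 times in mouse 2 (0.529 to 0.723) and 1.01 times in mouse 3 (0.525 to 2.14), so 2 of 3 mice show the direction. The V3.0 library of mouse 3, in which few barcodes passed, gave 11 of the UMIs behind the last ratio.

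*Slc15a3* differed between the kits by 0.21 (SE 0.14, adjusted p = 0.35); blocking on the mouse gave 0.23 (adjusted p = 0.012), under the fold threshold. Its V3.1 level was 1.34, 1.05 and 1.06 times the V3.0 level in mice 1, 2 and 3, above it in 3 of 3, as for 25% of the genes tested. *Slc15a4* differed by −0.01 (SE 0.06, adjusted p = 0.94), with ratios of 0.968, 0.965 and 1.03. Of 60 tested genes from a list of 69 that handle lysosomal amino acids, peptides and their sensing, 1 was called higher with V3.1 and 2 lower, beside 1.55% and 1.52% of all genes. *Tlr9*, the endosomal sensor of unmethylated CpG DNA, rose by 1.69, *Slc7a14*, a lysosomal cationic amino acid carrier, fell by 0.94, and *Rptor*, the Raptor subunit of mTORC1, fell by 0.69. Without any 1 mouse there was 1 list call in each direction, beside 192, 156 and 435 calls over all genes without mouse 1, 2 and 3. The list's median log2 fold change was −0.03, beside 0.00081 over all genes.

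The comparison of cell types asked where the transporters stand across sorted brain myeloid cells, with both kits of a mouse summed. Its main fit, like that of the interferon classes below, did not use the mouse as a replicate block. Of microglia, border macrophages and neutrophils, *Slc15a4* had its highest level in microglia and its lowest in neutrophils. It stood at 105, 107 and 104 CPM in the microglia of mice 1, 2 and 3, at 55.3, 69.9 and 38.0 in border macrophages (7, 24 and 4 UMIs), and at 15.7, 18.6 and 18.9 in neutrophils (13, 12 and 10 UMIs). The means were 105.5 ± 1.46, 54.4 ± 15.9 and 17.8 ± 1.77 CPM (SD, n = 3 mice). Monocytes of the same sort, which entered no test, stood at 109.7, 98.01 and 102 CPM, a mean of 103.1 ± 5.97 that overlaps microglia, so the level of microglia is not particular to them. With cells thinned to 2000 UMIs, a UMI of *Slc15a4* was found in 18.1% of monocytes and 18.6% of microglia.

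*Slc15a4* fell by 1.31 on the log2 scale in neutrophils against microglia (SE 0.21, edgeR adjusted p = 1.0e-05), in a comparison in which 58.5% of 7999 genes were called and 30.6% were called lower. It remained called lower under every alternative tried, at −2.61 to −1.03. Beside this level, *P2ry12*, a microglial gene that neutrophils should lack, was found in neutrophils at 15.1%, 6.53% and 8.50% of its microglial level in mice 1, 2 and 3, and *Slc15a4* at 14.97%, 17.4% and 18.1%. In mouse 1 the neutrophil level of *Slc15a4* was therefore no higher than this background. In border macrophages *Slc15a4* stood at 52.7%, 65.2% and 36.4% of its microglial level in mice 1, 2 and 3. There *P2ry12* stood at 28.0%, 22.7% and 33.2%, so both shares were closest in mouse 3, where *Slc15a4* had 4 UMIs. Neither neighbour in the order of levels was called different: border macrophages differed from microglia by −0.52 (SE 0.23, adjusted p = 0.15), where 14.6% of genes were called, and from neutrophils by 0.79 (SE 0.34, adjusted p = 0.064), where 41.6% were.

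The scale bears on every comparison with neutrophils. Their 12 marker genes took 389541 to 470062 CPM, so the CPM of any other gene is lowered there, and edgeR's TMM factors, used in the tests, offset this. With library totals in place of TMM, the median of all genes in neutrophils against microglia moved from −0.16 to −1.46 and the split of calls from 2226 higher and 2451 lower to 900 and 5904. For border macrophages against neutrophils the median moved from 0.05 to 1.06 and the split from 1446 higher and 1882 lower to 4043 and 823. For border macrophages against microglia it moved from −0.05 to −0.33 and from 717 higher and 448 lower to 533 and 1113.

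*Slc15a3* depended on this scale. It stood at 116, 83.5 and 87.1 CPM in microglia of mice 1, 2 and 3, at 71.1, 58.2 and 66.5 in border macrophages (9, 20 and 7 UMIs), and at 72.6, 31.1 and 47.2 in neutrophils (60, 20 and 25 UMIs). The means were 95.4 ± 17.6, 65.3 ± 6.53 and 50.3 ± 20.9 CPM (SD, n = 3 mice), and border macrophages and neutrophils overlapped. Against microglia, neutrophils differed by 0.41 with TMM (SE 0.21, adjusted p = 0.099), not called, and by −0.89 with library totals (adjusted p = 0.00058), called, so the direction turns with the scale. Microglial transcripts were found in border macrophages as well, where *P2ry12* stood at 28.0%, 22.7% and 33.2% of its microglial level and *Slc15a3* at 61.5%, 69.7% and 76.4%. The neutrophil level of *Slc15a3* was 62.8%, 37.2% and 54.2% of the microglial level in mice 1, 2 and 3, above the shares of *P2ry12*. Border macrophages differed from microglia by −0.33 (SE 0.32, adjusted p = 0.59) and from neutrophils by −0.74 (SE 0.36, adjusted p = 0.11), the last turning to 0.28 with library totals.

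*Slc15a2* was sparse outside microglia and its order among cell types depended on the fit. It stood at 7.96, 27.4 and 3.44 CPM in microglia of mice 1, 2 and 3, at 47.4, 37.8 and 9.504 in border macrophages (6, 13 and 1 UMIs), and at 2.42, 10.9 and 0 in neutrophils (2, 7 and 0 UMIs). Without mouse 2, whose high microglial level was the reason for the choice, *Slc15a2* did not pass the filter on low counts in these fits. That mouse held 724 of its 970 microglial UMIs and 13 of its 20 in border macrophages. The tests of *Slc15a2* across cell types are therefore no separate support, with or without the filter. Border macrophages and microglia had means of 31.6 ± 19.7 and 12.9 ± 12.8 CPM (SD, n = 3), but the difference of 1.66 (SE 1.17, edgeR adjusted p = 0.42) was not called. With the mouse as a replicate block it was 1.32 (SE 0.48, adjusted p = 0.050), just short of a call, and without a filter on low counts 1.55 (SE 0.41, adjusted p = 0.0031), called. Border macrophages against neutrophils gave 1.94 (SE 1.65, adjusted p = 0.36), also called without that filter at 1.87 (adjusted p = 0.0099), and neutrophils against microglia −0.28 (SE 1.41, adjusted p = 0.87). The 0 UMIs in the 89 neutrophils of mouse 3 allow up to 3.37% of cells with a UMI.

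In border macrophages, mouse 2 was not the highest for *Slc15a2*: its level was 0.798 times that of mouse 1 (95% counting interval 0.283 to 2.56) and 3.98 times that of mouse 3 (0.598 to 169). In neutrophils, mouse 2 had 7 UMIs, 1 with V3.0 and 6 with V3.1, and stood 4.50 times above mouse 1 (0.856 to 44.4). Both intervals against mouse 1 include 1. *Slc15a3* in neutrophils was lowest in mouse 2, at 45.1 and 19.7 CPM with V3.0 and V3.1, against 69.4 and 75.8 in mouse 1 and 39.3 and 49.8 in mouse 3, so the mouse with inhibitors overlapped the others by library.

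**Figure D4:**
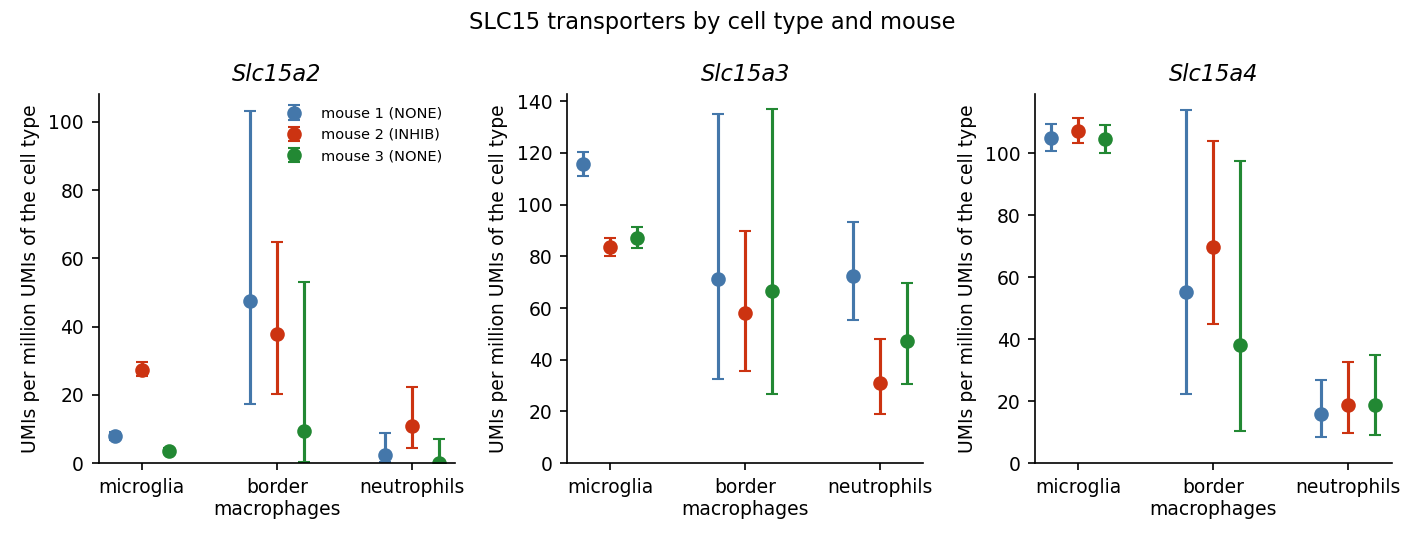
Level of each transporter (vertical axes, CPM, from 0) in microglia, border macrophages and neutrophils (horizontal axes); points are the 3 mice, both kits summed, with 95% exact Poisson intervals of the counts. *Slc15a4* runs from 104 to 107 in microglia down to 15.7 to 18.9 in neutrophils, and the border macrophage intervals are wide for all 3 genes.

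Of 55 tested genes of the same list, 5 were called higher in border macrophages than in microglia and 5 lower, beside 8.96% and 5.6% of all genes (4 and 9 with library totals), with a list median of −0.07 beside −0.05 over all genes. Fewer were called without mouse 2 (3 higher and 2 lower) and without mouse 3 (5 and 1), but calls over all genes also fell when a mouse was left out. *Tlr8*, an endosomal RNA sensor, stood at 94.8, 26.2 and 66.5 CPM in border macrophages of mice 1, 2 and 3 and at 0.0447, 0 and 0 in microglia. *Irf7*, a transcription factor of the interferon response, rose by 2.93, and the peptidases *Cpq*, *Ctsc* and *Ctsh* rose by 2.38 (SE 0.29), 1.57 (SE 0.16) and 0.60 (SE 0.14). *Tlr3*, the endosomal sensor of double-stranded RNA, fell by 1.38 (SE 0.28), from 134, 116 and 128 CPM in microglia to 31.6, 40.7 and 47.5 in border macrophages. *Tmem173*, which encodes STING, fell by 1.08, the lysosomal carrier gene *Slc46a3* fell by 1.15, *Rptor* fell by 0.90 and the aminopeptidase gene *Lap3* fell by 0.68.

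Neutrophils differed from microglia in most of the list, with 11 of 55 genes higher and 29 lower, beside 27.8% and 30.6% of all genes, and 6 and 44 with library totals. The list median was −0.89 with TMM, beside −0.16 over all genes. *Hdc*, which makes histamine from histidine, stood at 216, 320.1 and 248 CPM in neutrophils of mice 1, 2 and 3 and at 0.626, 0.531 and 0.708 in microglia. *Tlr8* stood at 14.5, 9.32 and 9.45 CPM in neutrophils. *Lta4h*, a leukotriene hydrolase and aminopeptidase, rose by 3.74 (SE 0.17), *Irf7* by 3.33, *Nod1*, a cytosolic sensor of bacterial peptidoglycan fragments, by 3.28 and the scaffold gene *Slc9a3r1* by 2.50. *Tlr3* fell by 2.24, *Rptor* fell by 2.23, the amino acid carrier gene *Slc7a5* fell by 2.21 and *Tmem173* fell by 2.16.

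Border macrophages were higher than neutrophils for 20 of the 55 genes and lower for 10, beside 18.1% and 23.5% of all genes, and for 39 and 6 with library totals. Without mouse 2 the counts were 12 and 9, given here without the share of all genes in that fit, so the drop is not shown to be one of the list. The list median was 0.80 beside 0.05 over all genes. *Hdc* had no UMI in border macrophages. *Lta4h* fell by 3.83 (SE 0.36), *Slc9a3r1* fell by 2.29, *Nod1* fell by 2.22, and *Myd88*, the adaptor of most Toll-like receptors, fell by 2.39. *Lamtor4*, a subunit of the lysosomal mTORC1 anchor, fell by 1.85. The peptidase genes *Ctsc*, *Cpq* and *Dpp7* rose by 3.45, 3.27 and 2.16, and the proton exchanger gene *Slc9a9* by 2.39.

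Microglia with interferon-induced transcripts were compared with the others because PHT2 and PHT1 sit beside interferon-linked sensing. Each microglial cell was thinned to 2000 UMIs and called interferon-high when it held at least 5 UMIs of 18 interferon-induced genes, a list that holds none of the transporters. Of 18199 cells with enough UMIs, 297 (1.63%) were interferon-high, 85, 133 and 79 in mice 1, 2 and 3. This is a range of a score and no cell type: 100 cells lay just under the limit with 4 such UMIs and 56 just at it with 5. The classes had medians of 3450 and 3554 UMIs per cell, and the microglial markers summed to a median of 22546 and 27043 CPM per cell in the high and the other cells. Those of border macrophages summed to 0 and 233, and those of neutrophils to 937 and 1020.

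*Slc15a3* was higher in the interferon-high cells. It stood at 185 CPM in the high and 114 in the other microglia of mouse 1, at 143 and 82.5 in mouse 2, and at 168 and 85.7 in mouse 3. The high cells rest on 58, 72 and 46 UMIs. *Slc15a3* rose by 0.83 on the log2 scale (SE 0.17, edgeR adjusted p = 0.0044), in a comparison in which 2.73% of 11632 genes were called and 2.37% were called higher. The call was lost without mouse 3 (0.75, adjusted p = 0.060), in the V3.0 libraries alone (0.65, adjusted p = 0.15) and with a limit of 3 interferon UMIs (0.45, adjusted p = 0.12), and the adjusted p ranged from 1.1e-09 to 0.15 over the alternatives.

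Along the score, *Slc15a3* did not climb evenly. It stood at 114, 81.6 and 84.6 CPM in cells of mice 1, 2 and 3 with 0 interferon UMIs, at 101, 75.3 and 90.0 in those with 3 to 4, and at 178, 196 and 195 in those with 8 or more. In the cells with 5 to 7 it was 190 in mouse 1, 81.5 in mouse 2 and 134 in mouse 3. The highest group was above the lowest in each mouse, and in mouse 2 only the highest group stood apart from the rest.

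*Slc15a4* gave no such difference, at 127, 83.5 and 95.1 CPM in the high cells of mice 1, 2 and 3 and 104, 108 and 104 in the others. Its log2 fold change was −0.04 (SE 0.15, adjusted p = 0.95), and the alternatives ranged from −0.25 to 0.21. *Slc15a2* had 1, 18 and 2 UMIs in the high cells and a log2 fold change of 0.59 (SE 1.10, adjusted p = 0.89). With the mouse as a replicate block it was 0.35 (SE 0.37, adjusted p = 0.79), so it was not called in either fit. Of 60 list genes tested, 3 were called higher in the high cells and 0 lower by edgeR, beside 2.37% and 0.352% of all genes, and DESeq2 gave the same counts of 3 and 0. By edgeR, 13 of the 60 had an unadjusted p under 0.05, beside 1495 of all 11632 genes. *Irf7*, which is itself among the 18 genes that set the class, rose by 5.86, *Nod1* by 1.54 (SE 0.37) and *Tlr3* by 0.72 (SE 0.15); the list median was 0.02 beside −0.06 over all genes. Without mouse 1 or mouse 2 there were 2 such calls, and without mouse 3 there was 1. These counts are given without the share of all genes in the same fits, so the drop is not shown to be one of the list.

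**Figure D5:**
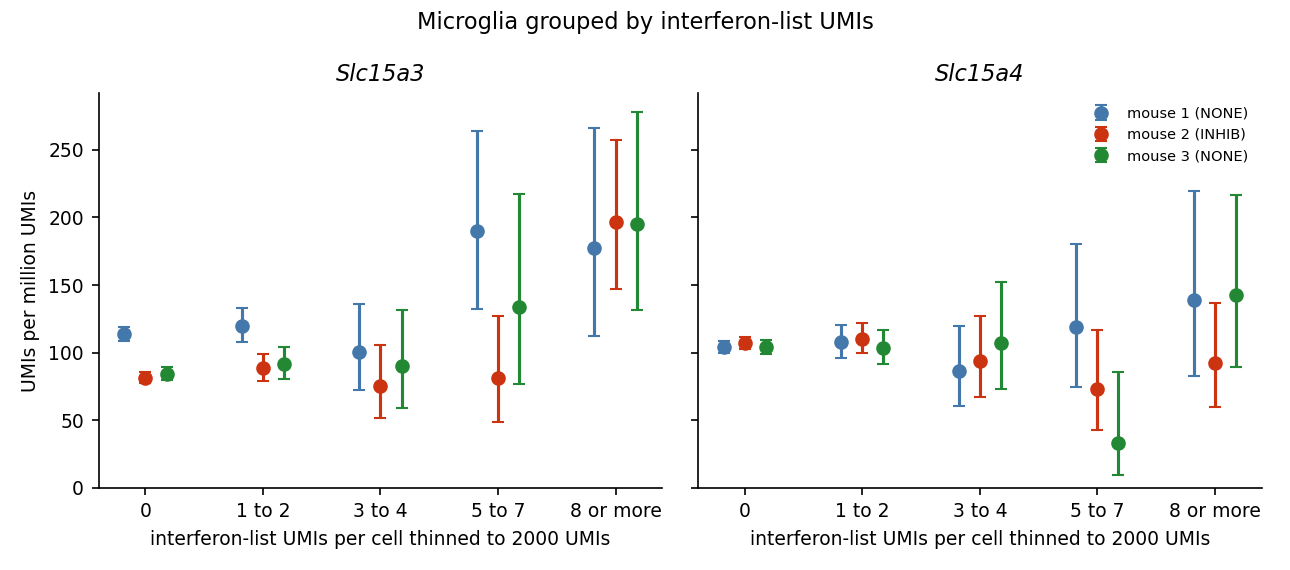
Level of *Slc15a3* and *Slc15a4* (vertical axis, CPM) in microglia grouped by the number of interferon-list UMIs in the cell thinned to 2000 UMIs (horizontal axis); points are the 3 mice with 95% exact Poisson intervals. *Slc15a3* stands at 178, 196 and 195 in cells with 8 or more and at 114, 81.6 and 84.6 in cells with 0, while the intervals of *Slc15a4* overlap between most groups.

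The genes around these carriers were also set side by side between the mouse with inhibitors and those without. The comparison was of 1 mouse against 2, with the spread taken from the mice without inhibitors, and 0.748% of 13094 genes were called, 0.382% higher and 0.367% lower. At that rate 0 calls among 62 list genes, by edgeR and by DESeq2, says nothing about the list. By edgeR, 8 of the 62 had an unadjusted p under 0.05, beside 967 of all 13094 genes. The list median was 0.03, beside −0.0048 over all genes. The nearest annotated genes to *Slc15a2* that were measured, *Ildr1*, *Eaf2* and *Iqcb1*, were not called either. *Ildr1* stood at 8.34 and 6.18 CPM in mouse 1, 7.96 and 6.98 in mouse 2 and 6.20 and 5.26 in mouse 3. *Eaf2* stood at 0.468 and 0.524 CPM in mouse 1, 0.704 and 1.23 in mouse 2 and 0.929 and 0.302 in mouse 3, which is 1.01 times the mean without inhibitors with V3.0 and 2.98 times with V3.1. *Iqcb1* stood at 8.40 to 12.2 CPM over the 6 libraries.

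The genes most like each transporter in pattern were taken by Pearson's r of log2 CPM, as descriptions with no test, since the points share mice and kits. Over the 6 microglial libraries, among 9708 genes with a mean of at least 5 CPM, *Slc15a2* was most like *Pgrmc1* (0.989), *Scaf4* (0.986) and *Arf5* (0.983). The likeness is one of shape and not of size, since *Pgrmc1* ran only from 56.1 to 60.7 CPM. *Slc15a3* was most like *Hnrnpa1* (0.982), *Angptl7* (0.980) and *Thoc7* (0.978), and *Slc15a4* most like *Agap3* (0.983), *Sirt7* (0.981) and *Zfp961* (0.977). Over the 9 sums of 3 cell types in 3 mice, *Slc15a4* was most like *Akr1b10* (0.997), *Zfp260* (0.992) and *Cerk* (0.992), *Slc15a3* like *4933406I18Rik* (0.968), *Dop1b* (0.958) and *AW549877* (0.954), and *Slc15a2* like *Prkci* (0.904), *Brpf3* (0.901) and *Arpc1a* (0.901).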

How the data were processed

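Single-cell UMI counts of 6 libraries were used. Per the labels and the study's methods, the authors counted UMIs with Cell Ranger 5.0.0 on mm10; the deposited counts per gene and barcode were not normalized, and cell types were rebuilt here. The members and gene lists were chosen with earlier results of these data known. The 3 members, *Slc15a1*, *Slc15a5*, genes adjoining the members, the 3 genes most like each member and the called list genes (up to 10 of largest change per comparison) are named.

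Barcodes were filtered as stated, normalized to 10000 UMIs, and clustered with scanpy 1.11.5 and Leiden (resolution 1, 2000 variable genes, 20 components, 20 neighbors) without the members. Clusters were named by markers, with border macrophages and monocytes split per cell by which markers had more UMIs. Scrublet called 41 of 19725 barcodes (0.208%) doublets, too few to be used, so leaving out the 4% highest scores was an alternative. UMIs were summed per library (kits) or per mouse and class (other comparisons) and tested with edgeR 4.0.16 (TMM, filterByExpr, quasi-likelihood, Benjamini-Hochberg over all genes); DESeq2 1.42.0 was an alternative. Library depth was 6275898 to 18872816 UMIs, and intervals cover counting error only. Libraries of a mouse share an animal, so mice pair the groups in every comparison but that of the inhibitors. Deviations of the kits of a mouse correlated at 0.367, 0.513 and 0.197. The main fits did not use this pairing, and the mouse as a replicate block was an alternative. The script was tested on simulated counts: changes of 1.5 on the log2 scale were recovered in 98.0% (kits), 79.1%, 97.8% and 68.7% (border macrophages and neutrophils against microglia, border macrophages against neutrophils), 68.7% (interferon) and 86.8% (inhibitors) of changed genes tested.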

Additional observations from a re-analysis of the deposited data

Results flagged for a closer look

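Among the 4 libraries without inhibitors, *Slc15a2* in neutrophils stood at 4.79 CPM in the V3.0 library of mouse 1, from 2 UMIs, and at 0 in the other 3. It was the 1 lone high or low value among 9 sets of 4 libraries examined with Dixon's test. The test's rate of about 1 in 20 sets by chance assumes continuous values. It does not hold here, since any library above 0 is flagged when the other 3 are at 0.

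Barcodes that failed the cell filter also carried the transporters. Summed over the 6 libraries they stood at 14.2 CPM for *Slc15a2*, 102 for *Slc15a3* and 124 for *Slc15a4*. The order of the mice for *Slc15a2* was seen there too, at 39.4 and 23.1 CPM in mouse 2 (V3.0 and V3.1) against 7.55 and 13.6 in mouse 1 and 2.82 and 4.998 in mouse 3. These barcodes come from the same captures and are not separate evidence.

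Monocytes, which entered no comparison, held *Slc15a4* at 101 CPM over 3 mice, *Slc15a3* at 41.8 and *Slc15a2* at 6.54, the last from 10 UMIs. By mouse, *Slc15a4* stood at 109.7, 98.01 and 102 CPM and *Slc15a3* at 57.7, 36.3 and 39.9. *Slc15a4* was in 39.1% of 276 monocytes.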

How the results depend on the processing

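Of 246 values of the members under alternatives, 211 kept their direction and side of the threshold or moved by less than the spread between replicates, and 72 of 81 counts of called genes stayed within 1.5 times. The cause was not tested for the others except where the scale or the number of cells is named.

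Between the kits, the mouse as a replicate block raised the calls to 595 and gave −0.63 for *Slc15a2*, called. No filter on low counts, in a fit without the block, gave −0.87, also called, with an SE of 0.14 beside 0.60 with the filter. With V3.0 the mice ran from 3.41 to 33.3 CPM, so this smaller SE leaves out the spread between mice and that call adds no support. The block changed the call of no other member in any comparison. Leaving out 1 mouse gave 156 to 435 calls (192 without mouse 1 and 156 without mouse 2), *Slc15a2* at −1.04 to −0.65, *Slc15a3* at 0.10 to 0.29 and *Slc15a4* at −0.031 to 0.012. *Slc15a4* turned to 0.00012 without the 4% highest doublet scores and to 0.0017 with thinned cells.

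For border macrophages against microglia, DESeq2 called 999 genes higher and 359 lower; joining the monocytes gave 3877 calls, *Slc15a3* at −0.63, called, and *Slc15a4* at 0.13. The marker gate, with 27 border macrophages, gave *Slc15a3* at −3.57, library totals *Slc15a4* at −0.81 and no filter on low counts *Slc15a2* at 1.55, all called; leaving out a mouse gave 683 (mouse 2) to 1081 calls. For neutrophils against microglia, *Slc15a3* was 0.59 with at least 500 genes per cell and −0.89 with library totals, both called. For border macrophages against neutrophils, *Slc15a2* was 1.87 and *Slc15a3* −0.80 with no filter on low counts, and *Slc15a3* was −0.88 with at least 500 genes per cell, −3.95 with the marker gate and −1.001 with monocytes joined, all called, and 0.28 with library totals. *Slc15a4* was called at 1.48 with monocytes joined, 1.80 with library totals and 0.97 without the V3.0 library of mouse 3.

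For interferon-high cells, *Slc15a3* lost its call at 0.45 with a limit of 3 UMIs and at 0.65 in the V3.0 libraries, which gave 196 calls; leaving out a mouse gave 0.75 to 0.91. *Slc15a2* turned to −0.30 in the V3.1 libraries, with −0.11 to 0.76 when a mouse was left out, and *Slc15a4* to 0.20 with a limit of 8 and 0.21 in the V3.0 libraries, with −0.22 to 0.15.

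For inhibitors, DESeq2 called 18 genes, leaving out the highest doublet scores 36 and thinning 27, against 98. The log2 ratio of *Slc15a2* was 1.79 to 3.00 and that of *Slc15a3* −0.47 to −0.06 when a mouse was left out. That of *Slc15a4* was 0.020 without the highest doublet scores, 0.062 in V3.0, 0.017 in V3.1, 0.048 by DESeq2 and with its size factors, and 0.057 with no filter. No paired analysis was possible for the inhibitors because the groups share no mouse, and mouse 2 could not be left out. Without mouse 2, *Slc15a2* did not pass the filter in the comparisons of cell types. Border macrophages, with 20 to 69 cells per mouse, limit every comparison that uses them.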
